A study of Arabidopsis thaliana with 7 samples.

Results

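FLOWERING LOCUS C (FLC) and its 5 closest relatives form a small clade of MADS-box transcription factor genes in Arabidopsis thaliana. The clade was taken as 6 fixed gene identifiers, and all 6 were found among the 33602 genes of the deposited count table. They are FLC (AT5G10140), FLOWERING LOCUS M (FLM, also called MAF1, AT1G77080), and MADS AFFECTING FLOWERING 2 to 5, namely MAF2 (AT5G65050, listed as AGL31 in the RefSeq gene table), MAF3 (AT5G65060), MAF4 (AT5G65070) and MAF5 (AT5G65080). FLM lies on chromosome 1 and the other 5 genes on chromosome 5, where MAF2 to MAF5 follow each other directly as a tandem array.

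The measured samples were 3 RNA-seq replicates of whole wild-type seedlings of Col-0, the reference accession, grown for 14 days on MS medium at 22 °C under a cycle of 16 h light and 8 h dark. The study set out to relate transcription to H3K4 methylation, and its 4 chromatin samples (H3K4me1, H3K4me2, H3K4me3 and input) were not analysed here. There was a single RNA group, so no condition could be set against another, and the questions the data answer are how high each gene stood and how firmly 3 libraries fix that level. Whether the replicates were grown separately is not stated in the labels, so every spread given here is that between these samples and may be technical. In RNA from whole seedlings, fewer cells of a type and less RNA per cell cannot be told apart.

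The proteins of this clade are repressors of flowering. FLC binds the genes of the flowering signal FT and of the integrator SOC1 and keeps them low, and it does so together with the MADS-box protein SVP. FLC is switched on by the FRIGIDA (FRI) complex and by chromatin complexes that act on active genes. It is kept low by the autonomous pathway and is silenced by Polycomb proteins during prolonged cold, a process called vernalization. Col-0 is known to carry a loss-of-function allele of FRI, which makes it an accession of low FLC that flowers without a cold period. FLM and MAF2 to MAF5 also delay flowering, and FLM and MAF2 are known for their part in the response to ambient temperature.

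The 3 libraries held 30946664, 18493022 and 20764970 counts in replicates 1, 2 and 3. Levels are given as CPM, counts scaled to a common library total with TMM factors (trimmed mean of M-values, 0.989 to 1.01). CPM count reads per gene and not molecules, because no transcript lengths were used here. An order of genes by CPM is therefore an order of read counts. The seedling label was set beside markers: the leaf genes RBCS1A, RCA, LHCB1.3 and CA1 had a median of 5790 CPM and all passed 1 CPM, and the root genes PYK10 and PHT1;1 stood at 2380 and 42.6 CPM. The floral organ genes AP3, AG and PI were all under 1 CPM, and of the seed genes CRA1 stood at 16.2 CPM while LEC1 and LEC2 were at or under 2 counts in every library. Low counts in the table were mostly even (84.5 to 86.2% of the counts from 1 to 19), and 11 of the 18 values of the 6 genes were even, so counts may come in pairs and intervals cover counting error only.

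All 6 genes of the clade were transcribed in these seedlings, and they fell into 3 steps of CPM. FLM and MAF2 were the highest at 31.1 ± 1.10 and 26.5 ± 1.60 CPM, MAF5 and MAF3 were intermediate at 12 ± 1.37 and 9.95 ± 0.901 CPM, and FLC and MAF4 were the lowest at 4.74 ± 1.15 and 4.18 ± 0.341 CPM (SD, n = 3). Each of the 6 passed a mean of 1 CPM, which 56.3% of all genes in the table passed. The median of the 6 means was 11 CPM, beside 2.95 CPM over all genes and 19.1 CPM over the 18915 genes that passed 1 CPM.

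**Figure D1:**
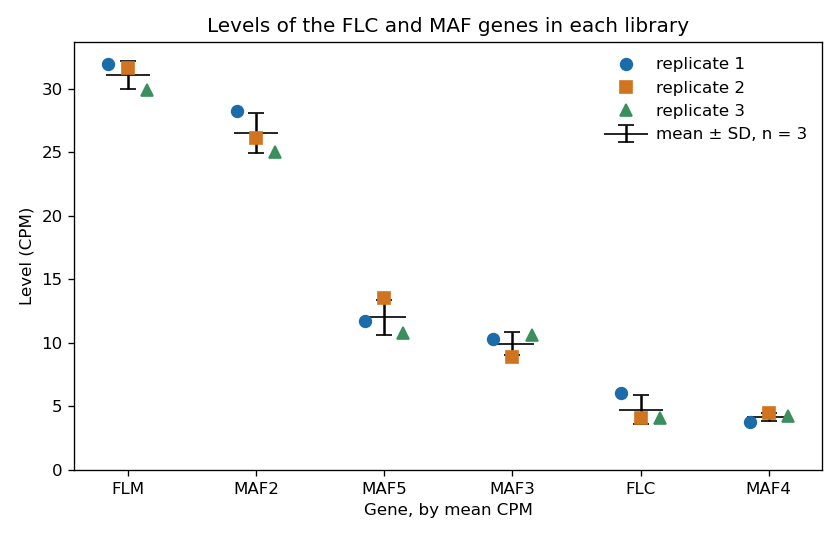
Level in CPM (vertical axis, from 0) of the 6 genes, ordered by mean, with 1 symbol per library and a bar for the mean ± SD of 3 libraries. FLM and MAF2 lie between 25 and 31.9 CPM, MAF5 and MAF3 between 8.93 and 13.5 CPM, and FLC and MAF4 between 3.81 and 6.08 CPM, with the first library of FLC above its other two.

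FLC, the gene on which vernalization and the autonomous pathway converge, had 188, 76 and 84 counts in replicates 1, 2 and 3. These were 6.08, 4.06 and 4.09 CPM, so that replicate 1 was higher and the other libraries lay close together. Replicate 1 exceeded the lowest library 1.5-fold, the widest range among the 6 genes, and the coefficient of variation was 24.3%, against 3.54 to 11.4% for the other members. Exact Poisson 95% intervals were 5.24 to 7.01 CPM in replicate 1, 3.20 to 5.08 CPM in replicate 2 and 3.26 to 5.07 CPM in replicate 3. The interval of replicate 1 did not meet those of the other libraries. With counts halved, to allow for pairs, the intervals were 4.91 to 7.44 CPM, 2.87 to 5.58 CPM and 2.95 to 5.53 CPM, which overlap. FLC stood above 18.2% of the genes that passed 1 CPM. Without replicate 1 its mean was 4.08 CPM. The RefSeq gene table places a long noncoding RNA gene, AT5G01675, over FLC; that gene was not analysed here. The strand setting of the counting is not given, so sense and antisense RNA at FLC cannot be told apart.

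FLM, whose transcript is spliced into several forms with temperature, had 986, 592 and 613 counts, which were 31.9, 31.6 and 29.9 CPM in replicates 1, 2 and 3. It had the lowest coefficient of variation of the clade, 3.54%, and its highest library was 1.07-fold above the lowest. FLM also had the most counts of the 6 genes, so counting error weighs least on it. It stood above 63.6% of the genes that passed 1 CPM. The RefSeq table gives FLM 11 transcripts, the most in the clade, while the other members have 3 to 6. The counts are per gene, so the balance of FLM splice forms is not seen in them.

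MAF2, which delays flowering after short cold spells, had 872, 489 and 514 counts, or 28.2, 26.1 and 25 CPM in replicates 1, 2 and 3. Replicate 1 was 1.13-fold above replicate 3, and the coefficient of variation was 6.04%. MAF2 stood above 59.0% of the genes that passed 1 CPM.

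MAF3, the next gene of the array, had 319, 167 and 218 counts, or 10.3, 8.93 and 10.6 CPM. Here replicate 2 was the lowest, and the range was 1.19-fold. MAF3 stood above 32.8% of the genes that passed 1 CPM.

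MAF4 had 118, 84 and 87 counts, or 3.81, 4.49 and 4.24 CPM. It had the lowest mean of the clade, but was under FLC in replicate 1 only. Replicate 1, the highest library for FLC, was the lowest for MAF4. The Poisson intervals of MAF4 were 3.16 to 4.57 CPM, 3.58 to 5.56 CPM and 3.39 to 5.23 CPM, and all overlapped. MAF4 stood above 16.0% of the genes that passed 1 CPM.

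MAF5, at the far end of the array, had 363, 252 and 221 counts, or 11.7, 13.5 and 10.8 CPM. Replicate 2 was the highest, 1.25-fold above replicate 3. MAF5 stood above 37.4% of the genes that passed 1 CPM.

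No member was called as varying more between libraries than genes of its own level. In edgeR's goodness-of-fit test with the trended dispersion, adjusted over 18915 genes, 0 of the 6 were called (adjusted p = 1 for each), and 0.148% of all genes tested were. On halved counts it again called 0 of the 6, beside 0.137% of all genes tested. Of the 6 unadjusted p-values none was under 0.05, beside 872 of the 18915 genes tested. FLC had the lowest at 0.13. A second version, with a dispersion of 0, measured the spread against counting error alone. It called FLC (adjusted p = 0.0061) and no other member (adjusted p from 0.11 for MAF5 to 0.61 for MAF4), where 32.8% of all genes tested were called. With counts halved the adjusted p for FLC was 0.19 and 6.36% of all genes tested were called. Without replicate 1 the adjusted p for FLC was 0.97 and 15.7% of all genes tested were called.

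The order of the 6 genes by CPM was FLM, MAF2, MAF5, MAF3, FLC and MAF4, and only some of its steps were wide. FLM exceeded MAF2 by 1.13-fold, 1.21-fold and 1.19-fold in replicates 1, 2 and 3, a narrow step that was present in 3 of 3 libraries. MAF2 exceeded MAF5 by 2.40-fold, 1.94-fold and 2.33-fold, a wide step. MAF5 exceeded MAF3 by 1.14-fold, 1.51-fold and 1.01-fold. In replicate 3 these genes were thus nearly level, and the mean log2 ratio of 0.27 was smaller than its SD of 0.30. MAF3 exceeded FLC by 1.70-fold, 2.20-fold and 2.60-fold, the other wide step. FLC exceeded MAF4 by 1.59-fold in replicate 1 but stood at 0.905 and 0.966 of it in replicates 2 and 3, so their values overlapped and the mean difference of 0.563 CPM was under the SD of FLC. Without replicate 1, MAF4 was the higher (mean log2 ratio of FLC over MAF4 of -0.10). An exact two-sided sign-flip test over 3 libraries cannot give a p under 0.25. It gave 0.25 for each of the first 4 of the 5 neighbouring pairs (0.3125 after Benjamini-Hochberg adjustment) and 1 for FLC and MAF4. No step could have passed a threshold of 0.05, so the test does not set wide steps apart from narrow ones. The pairs were also ordered by mean CPM in these same libraries.

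The shares of FLM and MAF2 in the clade's counts were steady, and those of the other members varied more for their size. Summed over the 6 genes, the clade reached 92.0, 88.7 and 84.6 CPM in replicates 1, 2 and 3 (88.4 ± 3.70 CPM, SD, n = 3). FLM took 35.2 ± 0.515% of that sum, MAF2 29.9 ± 0.647%, MAF5 13.6 ± 1.41%, MAF3 11.3 ± 1.25%, FLC 5.34 ± 1.10% and MAF4 4.74 ± 0.513%. FLM ran only from 34.6 to 35.7% and MAF2 from 29.5 to 30.6% between libraries. The share of FLC was 6.61% in replicate 1 and 4.58 and 4.84% in replicates 2 and 3.

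**Figure D2:**
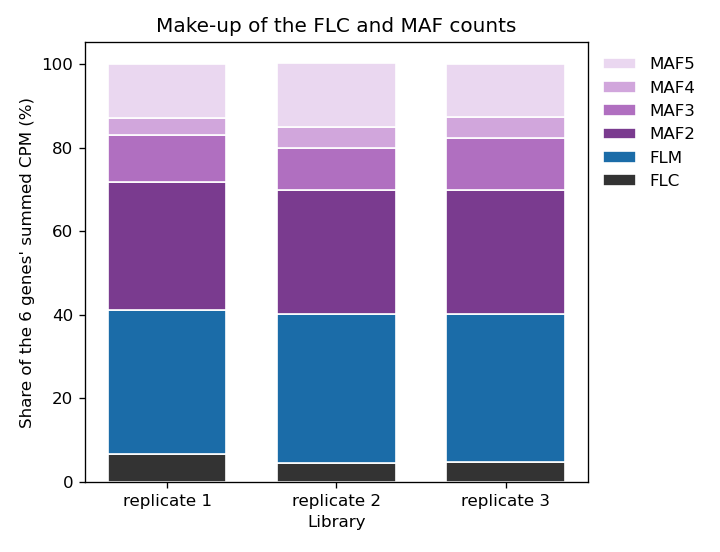
Share of the summed CPM of the 6 genes (vertical axis, percent) taken by each gene in each of the 3 libraries. FLM and MAF2 make up most of every bar, with 35.2 and 29.9% on average, and FLC and MAF4 are the thinnest bands.

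Within the tandem array, read counts were uneven. MAF2, the first gene of the array, took 52.2, 49.3 and 49.4% of the summed CPM of MAF2 to MAF5 in replicates 1, 2 and 3, about as much as its 3 neighbours together. MAF5 took 22.8 ± 2.28% and MAF3 19 ± 2.07%, and MAF4 took 7.96 ± 0.786% (SD, n = 3). Along the array the level thus stepped down over MAF2, MAF3 and MAF4 and was higher again at MAF5, in each of the 3 libraries. The 4 genes are close relatives, and how reads that match several of them were counted is not given; their shares are uncertain to that extent.

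The surroundings of the 3 loci were set beside the members by taking 3 genes on each side in the order of identifiers. Of these 18 neighbours, 12 passed 1 CPM, beside 56.3% of all genes in the table. The array lay between weakly transcribed genes: AT5G65040 next to MAF2 stood at 3.62 ± 0.814 CPM, and BST1 (AT5G65090), a root hair gene next to MAF5, at 1.27 ± 0.432 CPM. MAF2, MAF3 and MAF5 were above both of these genes in every library, whereas MAF4 was above BST1 in every library but overlapped AT5G65040. Farther out, AT5G65030 stood at 0.732 ± 0.547 CPM and AT5G65100 at 0.0540 ± 0.0496 CPM, while the annexin gene ANNAT2 (AT5G65020) at 63.4 ± 4.03 CPM and ACX2 (AT5G65110), an enzyme gene of fatty acid breakdown, at 93.7 ± 5.25 CPM were above every gene of the array.

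FLC lay between a quieter and a more active side. AT5G10130 before it stood at 2, 0.588 and 1.56 CPM in replicates 1, 2 and 3, and AT5G10120 at 0.301 ± 0.0993 CPM. Both were under FLC in every library, and the range of AT5G10130, 3.41-fold, was wider than that of FLC. AT5G10110 stood at 9.10 ± 1.37 CPM, above FLC in every library. After FLC, AT5G10150 at 21.9 ± 0.488 CPM, AT5G10160 at 31.0 ± 1.66 CPM and the inositol synthesis gene MIPS3 (AT5G10170) at 17.1 ± 0.424 CPM were all above FLC. None of these 3 was as far apart between libraries as FLC, with ranges of 1.04-fold to 1.11-fold.

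The nearest protein-coding genes on each side of FLM were transcribed at a similar level or above it. AT1G77060 before it stood at 31.4 ± 2.49 CPM and AT1G77090 after it at 41.6 ± 5.75 CPM, and the values of AT1G77060 overlapped those of FLM. AT1G77030 stood at 43.1 ± 2.44 CPM. The tRNA gene AT1G77040 had 0, 4 and 0 counts, and AT1G77093 and the pseudogene AT1G77095 had none; in replicate 2, the shallowest library, the limit set by 3 counts was 0.162 CPM.

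**Figure D3:**
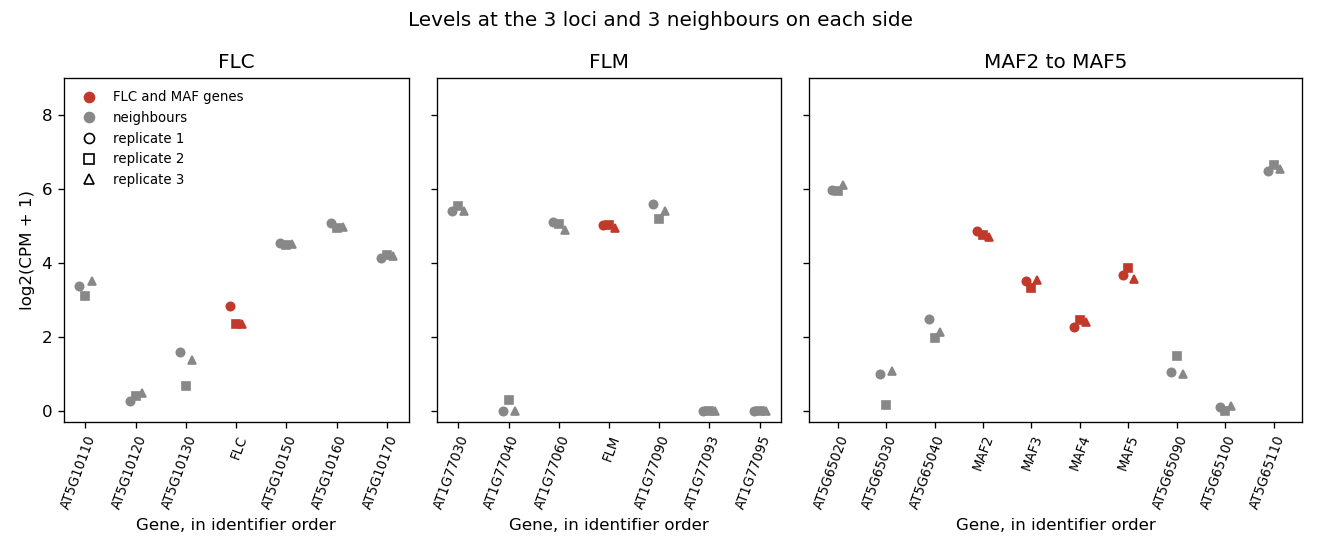
log2(CPM + 1) of the clade (red) and of 3 neighbours on each side (grey) in identifier order at the 3 loci, with 1 symbol per library. MAF2, MAF3 and MAF5 lie above AT5G65040 and BST1 on their sides, and MAF4 lies above BST1 but overlaps AT5G65040. FLC lies above AT5G10120 and AT5G10130, and below AT5G10110 and the genes of 17.1 to 31.0 CPM after it. FLM lies level with AT1G77060.

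MIKC genes are the MADS-box family to which the clade belongs, and many of them specify flowers. The clade was set beside a fixed list of 33 other MIKC genes, which does not cover the whole family. All 6 genes of the clade passed 1 CPM, against 14 of the 33 other MIKC genes listed and 56.3% of all genes in the table. The medians were 11 CPM in the clade and 0.844 CPM in the other MIKC genes. At 10 CPM and over there were 3 genes of the clade (FLM, MAF2 and MAF5) and 4 others. The clade took 31.2, 30.1 and 29.8% of the CPM of the 39 genes in replicates 1, 2 and 3.

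FLM and MAF2 ranked 3rd and 4th of the 39 by CPM. Above them were SVP (AT2G22540), the partner of FLC and FLM in repression, at 68.9 ± 2.54 CPM, and SOC1 (AT2G45660), which FLC represses, at 56.4 ± 2.77 CPM. AGL16 at 22.5 ± 0.252 CPM was next below MAF2, and their values did not overlap. SEP4 at 14 ± 1.5 CPM overlapped MAF5. AGL18, a repressor of flowering, at 8.34 ± 0.227 CPM was under MAF3 in every library, and AGL24, a promoter of flowering, stood at 7.62 ± 1.23 CPM. FLC and MAF4 ranked 12th and 13th by their means, below 7 other MIKC genes, and the order of FLC and MAF4 turned without replicate 1.

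**Figure D4:**
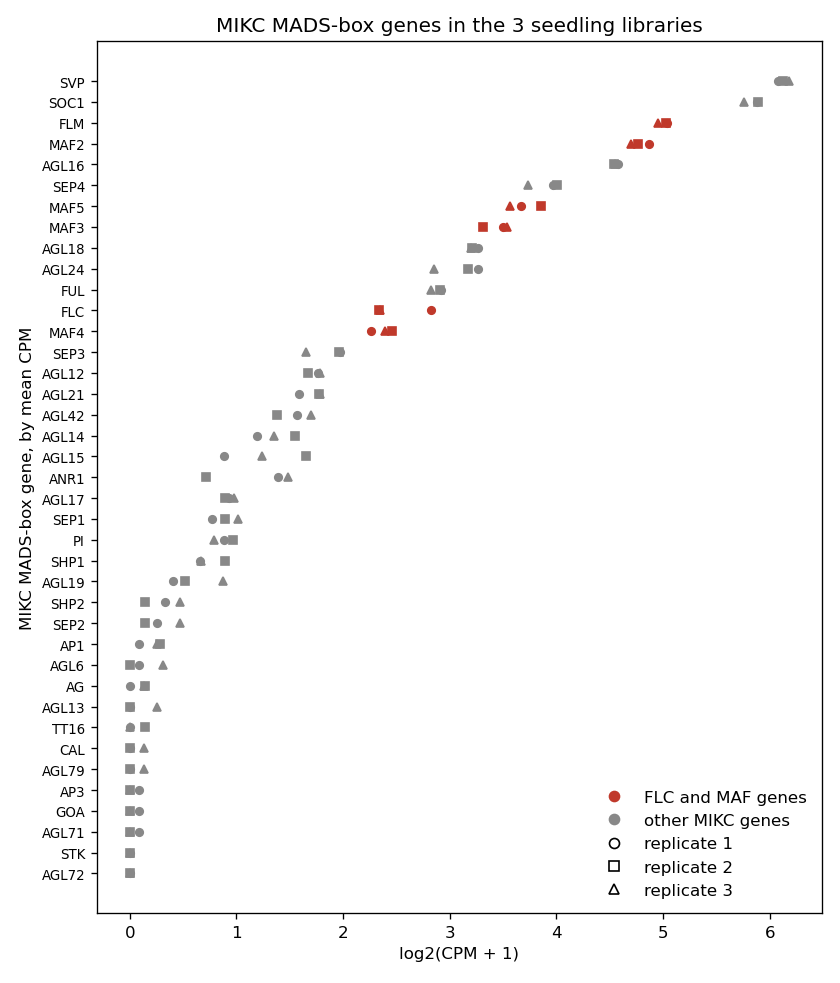
log2(CPM + 1) of the 39 listed MIKC genes ordered by mean CPM, with 1 symbol per library, the FLC and MAF genes in red and the other genes in grey. FLM and MAF2 follow SVP and SOC1 at the top, and FLC and MAF4 lie at ranks 12 and 13, above SEP3.

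Upstream of FLC, the genes of the FRI complex were all transcribed. All 7 passed 1 CPM, which 56.3% of all genes in the table passed. Their median was 7.63 CPM, beside 11 CPM in the FLC and MAF clade. FRI (AT4G00650) itself stood at 10.6, 10.4 and 10.9 CPM in replicates 1, 2 and 3, above FLC in every library. SUF4, a zinc finger protein of the complex, was the highest at 37.3 ± 1.46 CPM, and FES1 followed at 12.2 ± 0.393 CPM. FLX stood at 7.63 ± 1.21 CPM, FRL1 at 7.49 ± 0.737 CPM, FRL2 at 6.75 ± 0.519 CPM and FLX4 at 5.21 ± 0.223 CPM. A transcript count does not show whether the protein works.

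The chromatin activators of FLC and the genes of the autonomous pathway all had a higher mean CPM than FLC, on a scale that favours long transcripts. All 10 chromatin activators passed 1 CPM (median 41.5 CPM), from the H3K36 methyltransferase gene EFS at 82.7 ± 3.37 CPM and the Paf1 complex gene VIP4 at 70.6 ± 2.69 CPM to VIP3 at 17.5 ± 1.35 CPM and the H3K4 methyltransferase gene ATX1 at 9.70 ± 0.114 CPM. All 8 autonomous pathway genes, which keep FLC low, passed 1 CPM (median 40.3 CPM), beside 56.3% of all genes in the table. They were led by the RNA-binding protein gene FLK at 63.7 ± 4.09 CPM and by FVE at 61.1 ± 4.86 CPM, followed by FPA at 50.8 ± 3.92 CPM and the H3K27 demethylase gene REF6 at 48.7 ± 4.10 CPM. FCA stood at 31.9 ± 1.88 CPM, LD at 29.9 ± 1.15 CPM, FY at 25.6 ± 2.40 CPM and the demethylase gene FLD at 24.8 ± 2.95 CPM.

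Of 14 vernalization and Polycomb genes, 12 passed 1 CPM (median 32.2 CPM), beside 56.3% of all genes in the table. VEL1 at 78.0 ± 1.19 CPM and the methyltransferase gene SWN at 59.8 ± 2 CPM were the highest. VIN3, the cold-induced gene that starts the silencing of FLC, had no count in replicates 1 and 2 and 2 counts in replicate 3, which is below the 3 counts taken as the detection limit, and VIL3 had none. The seedlings were labelled as kept at 22 °C.

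Of 13 partners and targets, 11 passed 1 CPM (median 2.65 CPM), beside 56.3% of all genes in the table. The means of the 13 ran from 0.0325 to 134 CPM, where those of the clade ran from 4.18 to 31.1 CPM. TEM1 and TEM2, repressors of FT, stood at 134 ± 12.7 and 104 ± 6.97 CPM, above every gene of the clade. FT had 52, 38 and 44 counts, or 1.68, 2.03 and 2.14 CPM, which was under every gene of the clade in every library. Its relative TSF had 0, 0 and 2 counts. SMZ, another repressor, stood at 14.4 ± 0.428 CPM, and AGL15 at 1.45 ± 0.653 CPM. FD, which encodes the partner of FT protein at the shoot tip, stood at 2.38 ± 0.253 CPM, SEP3 at 2.65 ± 0.436 CPM, SPL15 at 1.84 ± 0.159 CPM and TFL1 at 0.635 ± 0.244 CPM. SVP, SOC1, SEP3, AGL15 and AGL18 also belong to the MIKC family above. In the edgeR test against genes of like level, no gene of the pathway lists that passed 1 CPM was called. That test called only 0.148% of all genes tested.

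**Figure D5:**
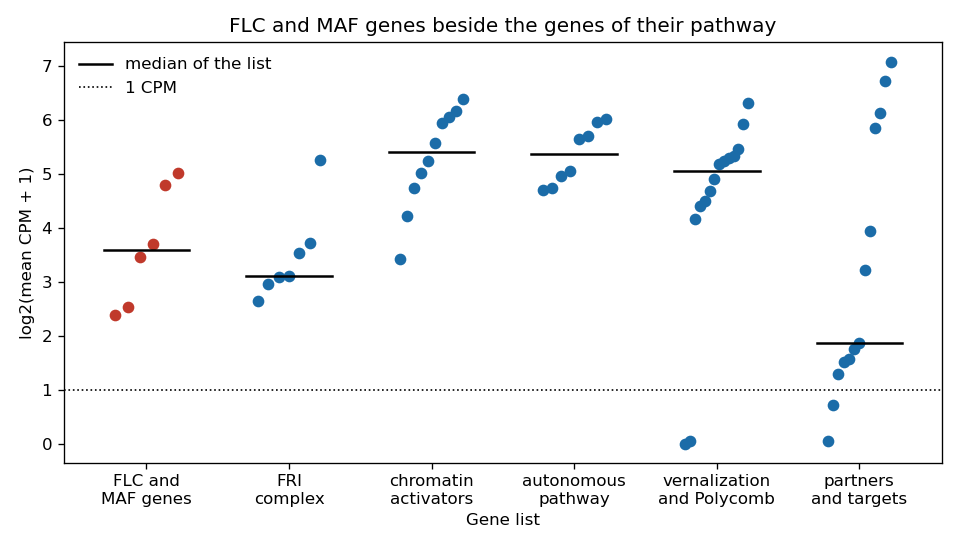
log2(mean CPM + 1) of each gene, over 3 libraries, in the FLC and MAF clade (red) and in 5 pathway lists (blue), with a line at each list's median and a dotted line at 1 CPM. The medians are 11 CPM in the clade, 7.63 CPM in the FRI complex, 41.5 CPM in the chromatin activators, 40.3 CPM in the autonomous pathway, 32.2 CPM in the vernalization and Polycomb list and 2.65 CPM in the partners and targets.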

How the data were processed

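For each of the 3 RNA libraries the authors deposited a column of raw counts per gene. The submitters' processing notes name build TAIR10 and, without role or order, the tools HISAT2, featureCounts, cutadapt, SAMtools 1.13, Bowtie2 2.4.5 and deepTools 3.5.1. Annotation release, strand setting and the treatment of read pairs and of multi-mapping reads were not given in the sources used here. The kit was a stranded one, per the labels' protocols. edgeR 4.0.16 (R 4.3.3) gave the TMM factors and CPM. Genes averaging 1 CPM or more were taken as expressed. The spread between libraries was tested with a goodness-of-fit test in edgeR (intercept-only fit, with the trended dispersion or a dispersion of 0), with Benjamini-Hochberg adjustment over all expressed genes and a threshold of 0.05. Only the version with the trended dispersion was checked on simulated counts. These were drawn from that same fitted dispersion, so the check does not bear on whether the dispersion is right. For names, RefSeq's table for TAIR10.1 was used, which holds 32835 of the 33602 identifiers.

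Levels per kb of transcript or coding sequence were planned, but no such lengths were used here, so orders and shares rest on CPM. Sequences of the genes were not used here either. The members and lists were chosen with earlier results of these data known. The text names all 6 members, 3 neighbours on each side of each locus, every gene of the FRI complex, autonomous pathway and partners and targets lists, the 2 highest and 2 lowest of the other pathway lists, the 6 highest of the other MIKC genes, and the gene nearest in level to each member. All list genes kept their entry: each name is in the gene table, or, for FLX, the table holds no competing symbol.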

Additional observations from a re-analysis of the deposited data

How the results depend on the processing

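The clade's summed level, the count of members and of list genes at 1 CPM and the position among the listed MIKC genes were recomputed. The settings were DESeq2 1.42.0 size factors, plain CPM and leaving out each replicate in turn. The share of MAF2 in the array was recomputed only by leaving out each replicate. Scaling factors cancel within a library and cannot change the number of neighbouring pairs that kept their order in every library (4 of 5). Leaving out a replicate could not change that number either. The 4 pairs kept their order in all 3 libraries, and FLC was under MAF4 in both replicates 2 and 3. No setting was thus a check on it. None of these results moved beyond the SD over the 3 libraries or, for counts, by over 1.5 times. With 3 libraries, leaving 1 out moves a mean by less than that SD. For the summed level and the share of MAF2, leaving out a replicate was therefore no check by that rule. The summed level ran from 86.7 to 90.9 CPM and the share of MAF2 from 49.4 to 50.8% when 1 replicate was left out. At thresholds of 0.5 and 2 CPM all 6 members still passed. The test against genes of like level called 0 members under each of these settings, without a filter on low counts and with counts halved. Results that did change concern FLC: without replicate 1 the mean log2 ratio of FLC over MAF4 was -0.10, against 0.16 with all 3 libraries and up to 0.31 when another replicate was left out, and its spread beyond counting error lost its call without replicate 1 (adjusted p = 0.97) and with counts halved (adjusted p = 0.19), but not without replicate 2 (adjusted p = 0.015) or replicate 3 (adjusted p = 0.021). The share of all genes called in that test was 32.8% with all 3 libraries, 15.7, 20.4 and 16.7% without replicates 1, 2 and 3, and 6.36% with counts halved. The cause was not tested. All alternatives for neighbours, for lists and for the counting error test were added after seeing the data. Orders and shares per kb were not run. No analysis paired between conditions was possible because there was a single RNA group. Pairing was of genes within a library only. With 76 to 188 counts for FLC and 84 to 118 for MAF4, depth limits the lowest members most.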

Other observations

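Genes nearest to each member in level were found by the Euclidean distance of log2(CPM + 1) over the 3 libraries, among all protein-coding genes of the table. With replicates of a single group, such a likeness is one of level and not of response. FLC, with its high replicate 1, had AT1G77290 as its nearest gene at 6.14, 4.33 and 4.24 CPM in replicates 1, 2 and 3 (distance 0.086), and 23 genes lay within 0.2 of it. The nearest genes of the other members were AT5G35460 for FLM (distance 0.0036), DOF1 for MAF2 (0.018), AT5G19630 for MAF3 (0.028), AT1G45248 for MAF4 (0.019) and AT5G48800 for MAF5 (0.017). Within 0.2 lay 536 genes for FLM, 409 for MAF2, 196 for MAF3, 136 for MAF4 and 210 for MAF5.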
